A study of Homo sapiens with 4 samples.

Results

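The genes described here encode proteins that take a cell through mitosis: the kinases and cyclins of mitotic entry, the spindle checkpoint, the kinetochore, the spindle, the machinery of anaphase and cytokinesis, and the proteins that fold chromosomes. They were chosen by name, with earlier results of these data known. The Ensembl identifiers of the 50 gene symbols were looked up among the 58735 rows of the count table, and all 50 were found. RNA came from MDA-MB-231 and SUM159, 2 human lines of triple-negative breast cancer, a tumour type named for its lack of the oestrogen and progesterone receptors and of excess HER2. Cells of each line received mebendazole (MBZ) at 1 μM or its solvent, DMSO, and were harvested after 72 h, which gives 4 groups: MDA-MB-231 with DMSO, MDA-MB-231 with MBZ, SUM159 with DMSO and SUM159 with MBZ. Each group is 1 library, so no difference below has a replicate check, and a comparison within a line sets 2 libraries against each other.

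MBZ is a benzimidazole that binds tubulin and hinders the growth of microtubules, the fibres of the mitotic spindle. Kinetochores, protein assemblies on the centromere of each chromosome, hold on to these fibres, and those without a fibre feed the spindle checkpoint, which keeps the anaphase-promoting complex (APC/C) inactive until every chromosome is attached. Many of the RNAs are made in G2 and mitosis and decline in G1. In bulk RNA, fewer cells that express a gene and less RNA per cell cannot be told apart.

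The libraries held 24897586 counts for MDA-MB-231 with DMSO, 17143139 for MDA-MB-231 with MBZ, 18708179 for SUM159 with DMSO and 18904501 for SUM159 with MBZ. The 50 genes together took 0.839% and 0.547% of the counts in MDA-MB-231 with DMSO and MBZ, and 0.152% and 0.475% in SUM159 cells. The SUM159 library with DMSO thus stood apart from the other 3, with the smallest share, and it also had the largest share of counts in its 50 most abundant genes, 20.4% against 14.8%, 12.3% and 15.8% in MDA-MB-231 with DMSO, MDA-MB-231 with MBZ and SUM159 with MBZ. It is the only control of its line, so every SUM159 comparison rests on it and none can be made without it.

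The labels were checked against receptor and lineage markers. PGR (progesterone receptor) had 0 counts in all 4 libraries, which allows up to 3 counts in each, and ESR1 (oestrogen receptor) had 1, 0, 2 and 18 counts in the order of the groups above. ERBB2 (the gene of HER2) was present at 1996, 1353, 1826 and 1216 counts. The mesenchymal marker VIM had 47253, 20703, 54409 and 41720 counts, while the epithelial CDH1 had 11, 12, 0 and 0, and EPCAM had 144, 190, 6 and 9. Of 4 markers of blood, endothelial and stromal cells, PDGFRA was at 0 in both MDA-MB-231 libraries. The others were detected there. With DMSO and MBZ, PECAM1 had 365 and 328 counts in MDA-MB-231, COL1A1 247 and 112, and PTPRC 8 and 23. The sum of PTPRC, PECAM1, COL1A1 and PDGFRA was 26.7, 24.4, 196 and 86.2 CPM. These CPM are counts scaled to a library total that was adjusted by TMM over the 4 libraries. All 4 markers were detected in SUM159 cells. With DMSO and MBZ there, COL1A1 had 1343 and 586 counts, PDGFRA 1026 and 306, PTPRC 216 and 60 and PECAM1 655 and 825, the last a level of 5.11 and 5.17 RPKM. Whether this bears on the SUM159 values below was not tested.

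Levels are given as RPKM, reads scaled to exon length and library size, after TMM scaling over the 4 libraries. Changes are log2 fold changes of MBZ over DMSO within a line after TMM scaling of its 2 libraries, with a 95% Clopper-Pearson interval on the reads, which covers counting error only. A gene is said to have risen or fallen where the fold change was at least 1.5 and the 2 libraries had a mean of at least 10 counts, a bar on counts that all 50 genes passed in both lines.

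In MDA-MB-231 cells 37 of the 50 genes fell with MBZ, where 15.8% of the 15142 genes compared did, and 0 rose, where 18.3% of all genes did. In SUM159 cells 45 of the 50 rose, where 21.5% of the 15674 genes compared did, and 1 fell, where 21.7% of all genes did. The same treatment was thus accompanied by lower mitotic RNA in one line and higher mitotic RNA in the other. Of the 50 genes, 35 did both, falling in MDA-MB-231 and rising in SUM159, which 3.12% of the 13733 genes compared in both lines did. This number is 16 with housekeeping scaling, beside 0.837% of all genes, and 21 at a fold change of at least 2, beside 0.83%. The log2 fold changes had a median of -0.93 for MDA-MB-231 and 2.07 for SUM159, beside -0.02 and -0.03 over all genes. The lines differed in size of change as well as sign, and the differences between them were not tested.

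**Figure D1:**
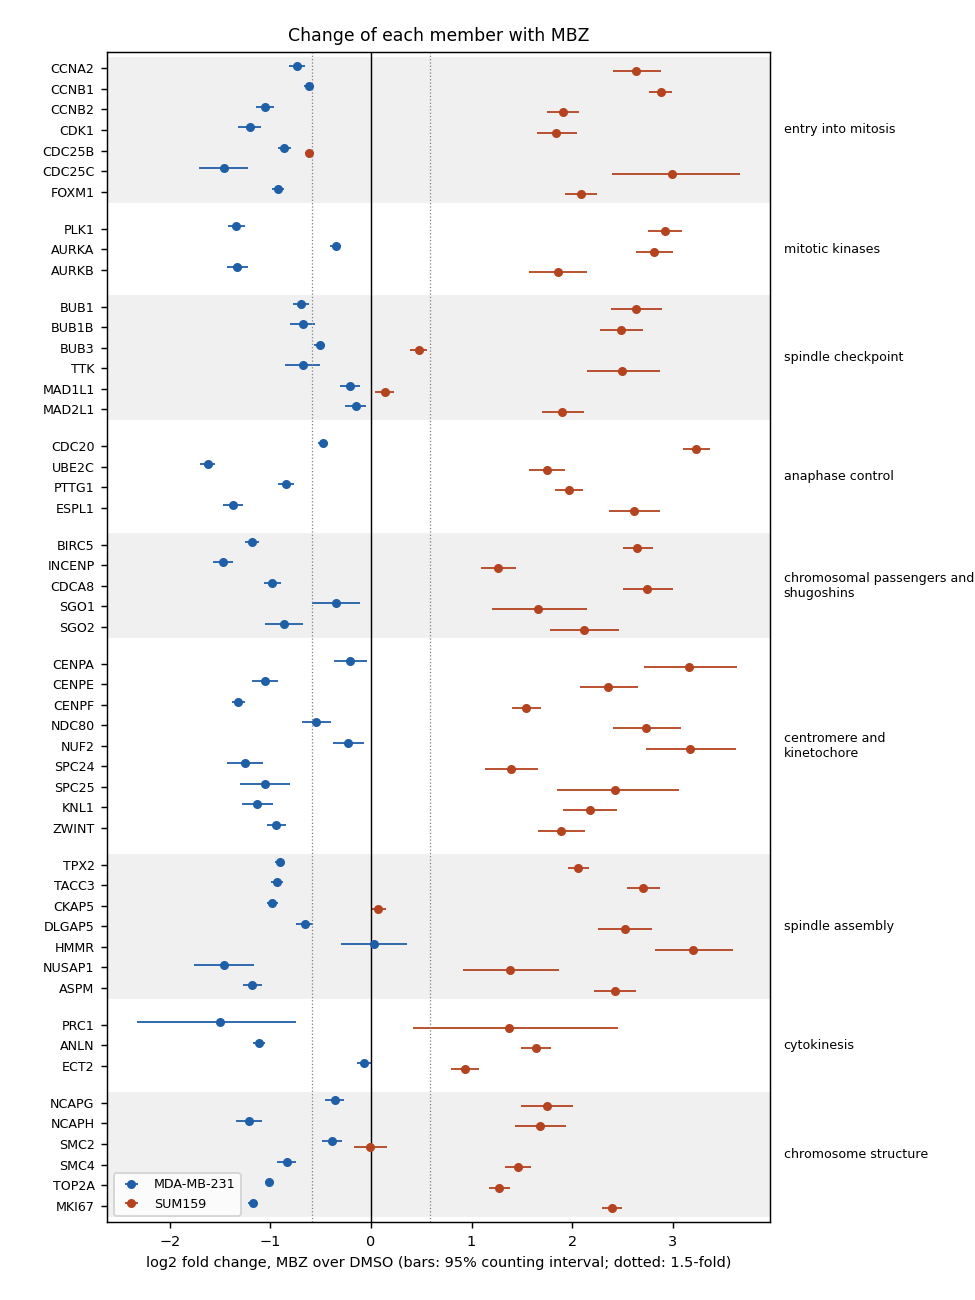
Log2 fold change of MBZ over DMSO for each of the 50 genes, grouped by role, in MDA-MB-231 (blue) and SUM159 (red) cells; bars are 95% counting intervals, the solid line is no change and dotted lines mark 1.5-fold. In MDA-MB-231 cells 49 points lie below 0, of which 11 move above it when libraries are scaled to housekeeping genes and 5 when they are scaled to total counts, while HMMR, above 0, lies below it with DESeq2 size factors. In SUM159 cells 48 lie above 0, with SMC2 changing sign under 3 other scalings.

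The size of the fall in MDA-MB-231 cells depends on how the libraries are scaled. The log2 fold changes of 12 housekeeping genes centred on -0.62 in this line and on 0.00 in SUM159, their medians, and ran from -1.22 for ACTB to 0.36 for TFRC in MDA-MB-231 and from -0.97 for B2M to 0.69 for TFRC in SUM159. Scaling to them moves the median of all genes in MDA-MB-231 by 0.54, and then 16 of the 50 fell, where 3.78% of all genes did, with a median of -0.39. Those that still fell are CDK1, CDC25C, PLK1, AURKB, UBE2C, ESPL1, BIRC5, INCENP, CENPF, SPC24, KNL1, NUSAP1, ASPM, PRC1, NCAPH and MKI67; the other falls among the 50 in MDA-MB-231 are short of 1.5-fold with this scaling. With it, 11 genes cross to values above 0, namely AURKA, BUB3, MAD1L1, MAD2L1, CDC20, SGO1, CENPA, NUF2, ECT2, NCAPG and SMC2. Scaling to total counts shifts all genes by a median of 0.27 in MDA-MB-231 and 0.30 in SUM159, and takes MAD1L1, MAD2L1, CENPA, NUF2 and ECT2 above 0 in MDA-MB-231, where CCNA2, CCNB1, BUB1, BUB1B, TTK, PTTG1, DLGAP5 and SMC4 then end short of 1.5-fold. In SUM159 cells the number that rose was 45 with housekeeping scaling, beside 23.2% of all genes, and 46 with total counts, beside 32.8%, the added gene being BUB3.

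Most genes shared the same highest and the same lowest library. MDA-MB-231 cells with DMSO had the highest level of 47 genes and SUM159 cells with DMSO the lowest level of 47. The median gene stood at 26.8 RPKM in MDA-MB-231 with DMSO, 14.5 RPKM in MDA-MB-231 with MBZ, 3.49 RPKM in SUM159 with DMSO and 12.5 RPKM in SUM159 with MBZ. By this median the 2 MBZ libraries lay between the 2 controls. Their own order varied, since with MBZ 29 genes were higher in MDA-MB-231 and 21 in SUM159. The exceptions at the top were CDC25B, highest in SUM159 with DMSO, and MAD1L1 and HMMR, highest in SUM159 with MBZ; at the bottom they were CDC25B, MAD1L1 and SMC2, which were not lowest in SUM159 with DMSO. The SMC2 levels of 5.23 RPKM with DMSO and 5.20 RPKM with MBZ in SUM159 do not differ beyond counting error.

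**Figure D2:**
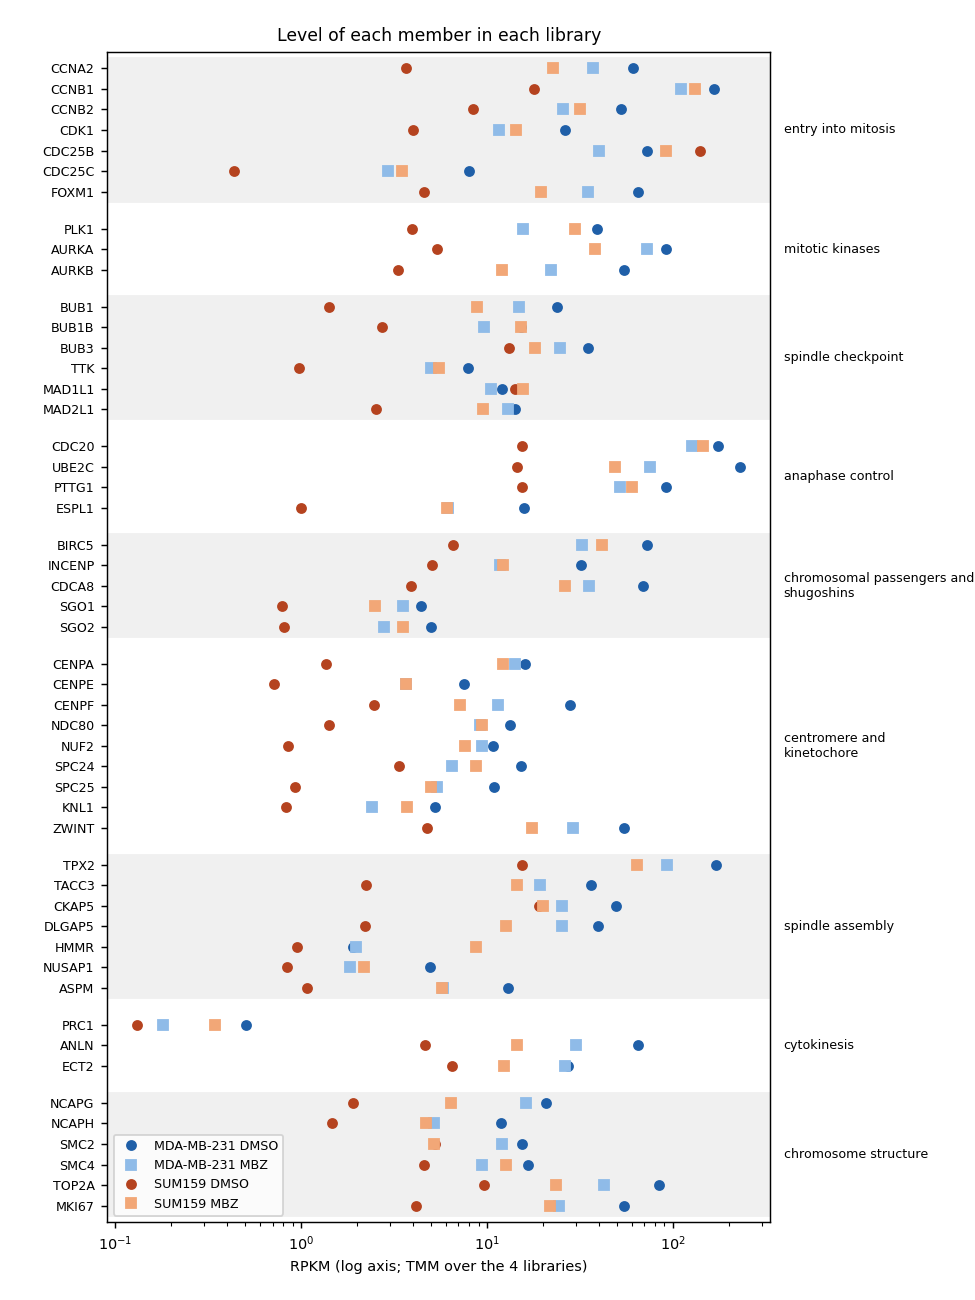
RPKM of each of the 50 genes in the 4 libraries on a log axis, with circles for DMSO and squares for MBZ, blue for MDA-MB-231 and red for SUM159. Dark red circles (SUM159 with DMSO) lie furthest left for 47 genes, and the pale squares of the 2 MBZ libraries lie within 2-fold of each other for 43.

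The lines were far apart with DMSO and close with MBZ. With DMSO, the level in MDA-MB-231 cells was a median of 9.64 times that in SUM159 cells, and 47 of the 50 genes were at least 2-fold higher in MDA-MB-231, against 18.4% of 15982 genes, with 0.5 CPM added to every level in counts at 2-fold. With MBZ, the median ratio was 1.08, and 44 genes were within 2-fold between the lines, against 3 with DMSO. Over all genes the share within 2-fold was 61.8% with DMSO and 69.1% with MBZ. Only 3 genes, CDC25B, MAD1L1 and HMMR, were at or above the MDA-MB-231 DMSO level in SUM159 cells with MBZ. These levels use the same 4 libraries as the fold changes and are no separate evidence of them.

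**Figure D3:**
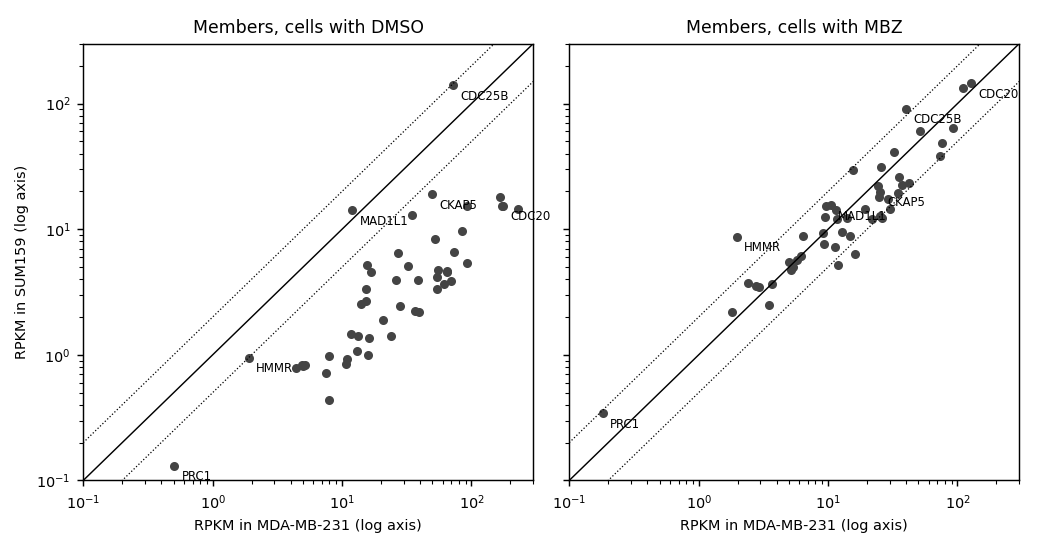
Level of each of the 50 genes in SUM159 against MDA-MB-231 cells, in RPKM on log axes, with DMSO (left) and with MBZ (right); the solid line is equality and dotted lines mark 2-fold. With DMSO 48 points lie on or below the lower dotted line, HMMR on it, and with MBZ 43 lie between the dotted lines.

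Genes of G2 and mitosis often carry 2 short sequence elements near their start, the cell cycle genes homology region (CHR) and upstream CCAAT boxes, through which the DREAM and MuvB complexes, MYBL2, FOXM1 and NF-Y act. The promoters of the 50 genes were read from RefSeq (GRCh38.p14), 250 bases before to 50 bases after each start. The table held 42 of them, and FOXM1, AURKA, BUB3, TTK, UBE2C, BIRC5, KNL1 and TPX2 have no entry in it. A CHR was searched as TTTGAA or TTCGAA and a CCAAT box as CCAAT, each on both strands; matches of the 2 patterns can overlap at their ends only. Of the 42 genes, 32 held a CHR match in at least 1 listed promoter, 32 a CCAAT match, and 25 both in the same promoter. Among the 10345 genes compared in both lines that have an entry, the shares were 15.3%, 43.1% and 6.46%. Counted per promoter, 36, 39 and 28 of the 56 entries of the 42 genes held them. Over all 35116 promoters in the table the shares were 16.4%, 34.6% and 6.38%.

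The 130 bases just upstream of the RefSeq start are shown for 5 genes that differ in their response: CCNB2, PLK1 and CDC20, with large increases in SUM159 cells, and CKAP5 and MAD1L1, whose SUM159 change was short of 1.5-fold. Matches are in capitals, and all 5 read 5′ to 3′ along the gene. The stretches are chr15:59105016-59105145, plus strand, for CCNB2; chr16:23678759-23678888, plus strand, for PLK1; chr1:43358851-43358980, plus strand, for CDC20; chr11:46846281-46846410, minus strand, for CKAP5; and chr7:2232946-2233075, minus strand, for MAD1L1.
CCNB2: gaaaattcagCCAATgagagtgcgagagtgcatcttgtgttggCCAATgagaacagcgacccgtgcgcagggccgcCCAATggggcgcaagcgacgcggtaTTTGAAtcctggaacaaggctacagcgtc
PLK1: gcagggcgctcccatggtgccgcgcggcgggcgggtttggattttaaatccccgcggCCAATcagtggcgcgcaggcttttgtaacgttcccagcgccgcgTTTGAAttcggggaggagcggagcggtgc
CDC20: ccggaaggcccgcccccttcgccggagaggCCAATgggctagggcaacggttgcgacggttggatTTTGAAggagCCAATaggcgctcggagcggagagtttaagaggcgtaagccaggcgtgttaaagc
CKAP5: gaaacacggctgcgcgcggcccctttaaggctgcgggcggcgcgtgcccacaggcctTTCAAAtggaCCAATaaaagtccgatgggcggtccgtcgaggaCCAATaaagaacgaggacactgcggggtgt
MAD1L1: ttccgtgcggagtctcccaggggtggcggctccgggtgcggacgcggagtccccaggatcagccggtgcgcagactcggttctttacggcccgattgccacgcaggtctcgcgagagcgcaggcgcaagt
CCNB2 has 3 CCAAT boxes in this stretch followed by a CHR at base -29 from the start, PLK1 a CCAAT box at -73 and a CHR at -29, and CDC20 CCAAT boxes at -100 and -55 around a CHR at -65. CKAP5 has a CHR on the other strand at -73 and CCAAT boxes at -63 and -30, and MAD1L1 has neither pattern. Over the 42 genes, the 32 with a CHR match had medians of -0.96 in MDA-MB-231 and 1.91 in SUM159 on the log2 scale, and the 10 without one -0.90 and 2.04. A match is a run of letters and not a shown binding site.

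**Figure D4:**
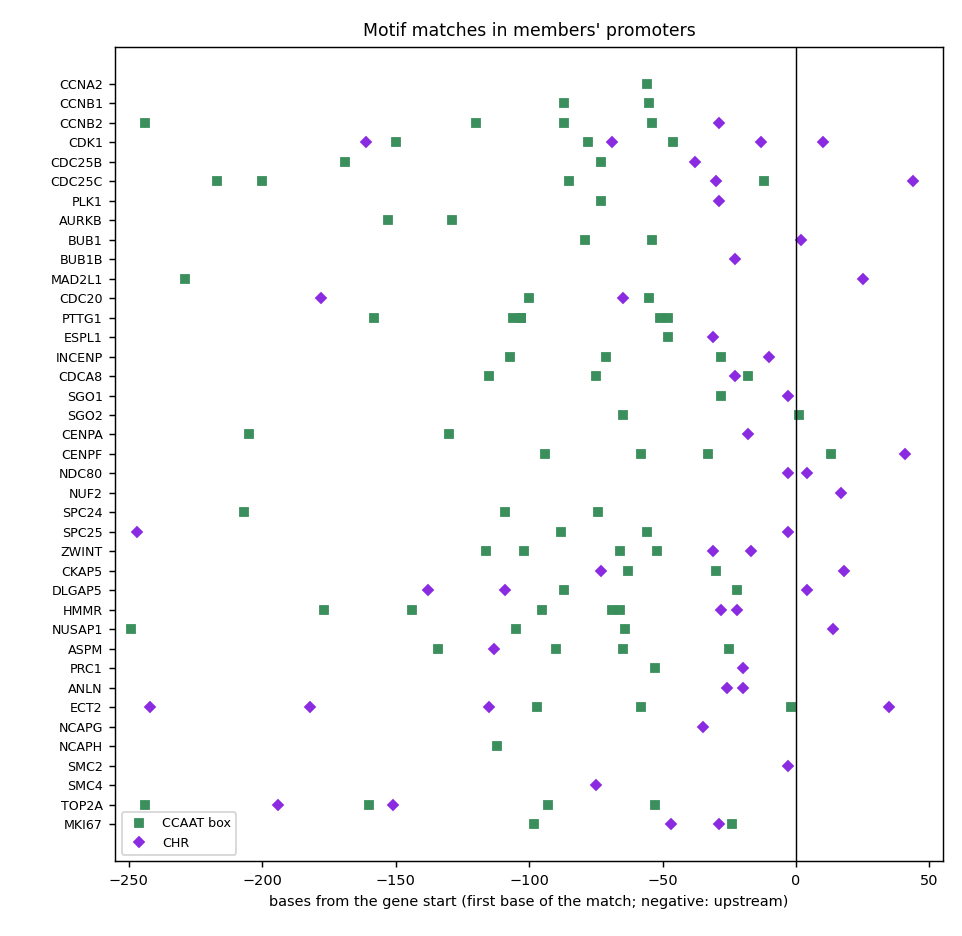
Position of CHR (diamonds) and CCAAT (squares) matches relative to the gene start for the genes with at least 1 match, in bases, with all listed promoters of a gene on its row, so that a match shared by overlapping promoters appears more than once. Of 50 CHR matches 35 lie within 50 bases of the start, and 57 of 82 CCAAT matches lie 150 to 40 bases upstream.

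Most matches lay in the same places, counted in windows chosen after the matches were seen. Within 50 bases of the start lay 70.0% of the CHR matches of the mitotic genes, against 27.6% of those of all genes compared in both lines. Of the CCAAT matches, 69.5% lay 150 to 40 bases upstream, against 55.9%.

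Entry into mitosis is set by CDK1, its cyclin partners and the CDC25 phosphatases that remove inhibitory phosphates from it. All 7 genes of this role fell in MDA-MB-231 cells, beside 15.8% of all genes. There, under housekeeping scaling all 7 stay below 0 and 2 are past 1.5-fold, beside 3.78%. Of the 7, 6 rose in SUM159 cells, beside 21.5%. CCNB1 (ENSG00000134057, chr5:69167135-69178245 of GRCh38), the main mitotic cyclin, stood at 167 RPKM with DMSO and 109.9 RPKM with MBZ in MDA-MB-231 cells, and 17.9 and 132 RPKM in SUM159 cells. This gives log2 fold changes of -0.62 (interval -0.67 to -0.57) and 2.88 (2.77 to 2.99), so that SUM159 cells with MBZ held more CCNB1 RNA than MDA-MB-231 cells with MBZ. CCNB2, the second B-type cyclin, had 52.3 RPKM with DMSO and 25.5 RPKM with MBZ in MDA-MB-231 cells, and 8.38 and 31.5 RPKM in SUM159 cells, with changes of -1.05 (-1.15 to -0.96) and 1.91 (1.75 to 2.07). CDK1 had 26.3 RPKM with DMSO and 11.6 RPKM with MBZ in MDA-MB-231 cells, and 3.97 and 14.3 RPKM in SUM159 cells. The kinase fell by 1.20 on the log2 scale in MDA-MB-231 (-1.32 to -1.09) and rose by 1.84 (1.65 to 2.05) in SUM159. CCNA2, the cyclin of S phase and G2, changed by -0.73 and 2.64, and FOXM1, a transcription factor of G2 and mitotic genes, by -0.93 and 2.08.

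The CDC25 phosphatases parted from each other. CDC25C was scarce in SUM159 cells with DMSO, with 24 counts or 0.435 RPKM, and had 239 counts or 3.48 RPKM with MBZ, a log2 fold change of 2.99 with a wide interval of 2.39 to 3.67. In MDA-MB-231 cells it went from 7.96 to 2.92 RPKM, a change of -1.46 (-1.71 to -1.22). CDC25B (ENSG00000101224, chr20:3786772-3806121 of GRCh38) was instead the most abundant of the 50 genes in SUM159 cells with DMSO, at 139.7 RPKM, and the only one that fell there, to 91.3 RPKM, a log2 fold change of -0.61 (-0.66 to -0.57). With total-count scaling this value is -0.31 and with housekeeping scaling -0.57, both short of 1.5-fold. In MDA-MB-231 cells CDC25B went from 72.1 to 40.2 RPKM, a change of -0.86 (-0.92 to -0.80), so with TMM scaling it was the only gene of the 50 to fall in both lines.

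Of PLK1, AURKB and AURKA, grouped here by role, all 3 rose in SUM159 cells (21.5% of all genes did) and 2 fell in MDA-MB-231 cells (15.8%). PLK1 (ENSG00000166851, chr16:23677656-23690367 of GRCh38), which drives centrosome maturation and mitotic entry, had 38.8 RPKM with DMSO and 15.5 RPKM with MBZ in MDA-MB-231 cells, and 3.93 and 29.8 RPKM in SUM159 cells. It fell by 1.34 on the log2 scale in MDA-MB-231 cells (-1.43 to -1.25) and rose by 2.92 in SUM159 cells (2.75 to 3.09). AURKB, the kinase of the chromosomal passenger complex, had 54.5 RPKM with DMSO and 22.0 RPKM with MBZ in MDA-MB-231 cells, and 3.31 and 12 RPKM in SUM159 cells, with changes of -1.33 (-1.44 to -1.22) and 1.86 (1.57 to 2.15). AURKA, the kinase of the spindle poles, stood at 91.7 RPKM with DMSO and 72.7 RPKM with MBZ in MDA-MB-231 cells, and 5.40 and 38.1 RPKM in SUM159 cells. Its MDA-MB-231 value of -0.35 (-0.41 to -0.29) is short of 1.5-fold and becomes 0.19 with housekeeping scaling, while its SUM159 value was 2.82 (2.63 to 3.01).

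Spindle checkpoint genes were the least lowered role in MDA-MB-231, at a median of -0.59 on the log2 scale that housekeeping scaling takes to -0.05. Of 6 genes, 3 fell in MDA-MB-231 (15.8% of all genes did), or 0 with housekeeping (3.78%) and 0 with total-count scaling (7.57%), and 4 rose in SUM159 (21.5%). BUB1 and BUB1B, kinase-fold proteins that load at unattached kinetochores, and TTK, the kinase that starts the signal, behaved alike. BUB1 had 23.7 RPKM with DMSO and 14.8 RPKM with MBZ in MDA-MB-231 cells, and 1.42 and 8.81 RPKM in SUM159 cells, or changes of -0.69 (-0.78 to -0.61) and 2.64 (2.39 to 2.89). BUB1B had 15.3 RPKM with DMSO and 9.67 RPKM with MBZ in MDA-MB-231 cells, and 2.71 and 15.2 RPKM in SUM159 cells, or -0.68 and 2.49. TTK changed by -0.68 (-0.85 to -0.51) and 2.5 (2.15 to 2.87).

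The partners of these kinases at the kinetochore did not follow them as a group. MAD2L1, the protein that is converted to bind CDC20, had 14.1 RPKM with DMSO and 12.9 RPKM with MBZ in MDA-MB-231 cells, and 2.53 and 9.45 RPKM in SUM159 cells. It rose by 1.90 (1.70 to 2.11) in SUM159 cells, and its MDA-MB-231 value was -0.15 (-0.25 to -0.05), or 0.39 with housekeeping and 0.12 with total-count scaling. MAD1L1 (ENSG00000002822, chr7:1815793-2233243 of GRCh38), its receptor at the kinetochore, stood at 12 RPKM with DMSO and 10.6 RPKM with MBZ in MDA-MB-231 cells, and 14.1 and 15.5 RPKM in SUM159 cells. All 4 values of MAD1L1 lay within a narrow band, with changes of -0.21 (-0.31 to -0.11), or 0.33 with housekeeping and 0.06 with total-count scaling, and 0.14 (0.04 to 0.23), or 0.44 with total-count scaling. GENCODE places another transcript on the same strand over 3004 of its 6955 exonic bases, and the effect on its count was not tested. BUB3, which docks BUB1 and BUB1B, went from 34.7 to 24.6 RPKM in MDA-MB-231 and from 13.1 to 18.2 RPKM in SUM159, with changes of -0.51, or 0.03 with housekeeping scaling, and 0.47, both short of 1.5-fold. With total-count scaling its SUM159 value is 0.78, past 1.5-fold.

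Anaphase control held the largest fall among the 50 in MDA-MB-231 cells and the largest rise in SUM159 cells. CDC20 (ENSG00000117399, chr1:43358981-43363203 of GRCh38), the APC/C activator that the checkpoint restrains, had 175 RPKM with DMSO and 127 RPKM with MBZ in MDA-MB-231 cells, and 15.4 and 145 RPKM in SUM159 cells. Its log2 fold change of 3.23 (3.10 to 3.37) was the largest of the 50 in SUM159 cells, a 9.41-fold rise. That interval overlaps those of HMMR, NUF2, CENPA and CDC25C in SUM159. In MDA-MB-231 cells the CDC20 change was -0.48 (-0.53 to -0.43), short of 1.5-fold, and 0.06 with housekeeping scaling. UBE2C (ENSG00000175063, chr20:45812576-45816957 of GRCh38), the ubiquitin-conjugating enzyme of the APC/C, was the most abundant of the 50 in the MDA-MB-231 control and fell the most in that line. It had 229.8 RPKM with DMSO and 75.6 RPKM with MBZ in MDA-MB-231 cells, and 14.6 and 48.9 RPKM in SUM159 cells. Its changes were -1.62 (-1.70 to -1.55), a 3.08-fold fall, and 1.75 (1.57 to 1.93). The first interval overlaps those of PRC1, NUSAP1, CDC25C and INCENP in MDA-MB-231. GENCODE lists 5 pseudogenes of the name UBE2C, among which reads may be split.

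Securin and separase, the inhibitor and the protease that opens cohesin at anaphase, moved with the rest. PTTG1 (securin) had 91.7 RPKM with DMSO and 51.7 RPKM with MBZ in MDA-MB-231 cells, and 15.4 and 60.4 RPKM in SUM159 cells, with changes of -0.84 (-0.92 to -0.77) and 1.97 (1.83 to 2.11), and shares sequence with its close copy PTTG2. ESPL1 (separase) had 15.8 RPKM with DMSO and 6.18 RPKM with MBZ in MDA-MB-231 cells, and 0.992 and 6.09 RPKM in SUM159 cells, with changes of -1.37 (-1.47 to -1.27) and 2.62 (2.37 to 2.88). The inhibitor was the more abundant RNA of the pair per length in every library.

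The chromosomal passenger complex corrects wrong attachments and later guides cytokinesis, and consists of AURKB with INCENP, BIRC5 and CDCA8. BIRC5 (survivin) had 72.9 RPKM with DMSO and 32.6 RPKM with MBZ in MDA-MB-231 cells, and 6.58 and 41.3 RPKM in SUM159 cells. It fell by 1.18 on the log2 scale in MDA-MB-231 cells (-1.25 to -1.11) and rose by 2.65 in SUM159 cells (2.5 to 2.80). CDCA8 (borealin) changed by -0.98 (-1.07 to -0.90) and 2.75 (2.51 to 3.0). INCENP, the scaffold, had 32.1 RPKM with DMSO and 11.7 RPKM with MBZ in MDA-MB-231 cells, and 5.06 and 12.2 RPKM in SUM159 cells, with the largest fall of the complex in MDA-MB-231 (-1.47, -1.58 to -1.37) and the smallest rise in SUM159 (1.27, 1.10 to 1.44). All 4 subunits fell in MDA-MB-231, beside 15.8% of all genes, and rose in SUM159, beside 21.5%, by different amounts. With housekeeping scaling CDCA8 is -0.44 in MDA-MB-231, short of 1.5-fold. AURKB, INCENP and BIRC5 stay past it there, where 3.78% of all genes fell. The shugoshins, which shield centromeric cohesin, were scarce in all libraries, SGO1 at 4.41, 3.51, 0.791 and 2.5 RPKM and SGO2 at 5.02, 2.79, 0.810 and 3.51 RPKM. SGO2 changed by -0.86 and 2.12, and SGO1 by -0.35, or 0.19 with housekeeping scaling, and 1.66.

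All 9 centromere and kinetochore genes rose in SUM159 cells, beside 21.5% of all genes, by log2 values from 1.39 (SPC24) to 3.17 (NUF2). In MDA-MB-231 cells 6 fell, beside 15.8%, and 3 with housekeeping scaling, beside 3.78%. CENPA, the histone H3 variant that marks centromeres, had 16.1 RPKM with DMSO and 14.1 RPKM with MBZ in MDA-MB-231 cells, and 1.36 and 12.2 RPKM in SUM159 cells. Its SUM159 value was 3.16 (2.72 to 3.64), and its MDA-MB-231 value of -0.21 (-0.37 to -0.04) becomes 0.33 with housekeeping and 0.06 with total-count scaling. The kinetochore kinesin CENPE went from 7.55 to 3.68 RPKM in MDA-MB-231 and from 0.711 to 3.66 RPKM in SUM159. CENPF, a large protein of the outer corona, had 28 RPKM with DMSO and 11.4 RPKM with MBZ in MDA-MB-231 cells, and 2.46 and 7.17 RPKM in SUM159 cells. Both fell in MDA-MB-231 and rose in SUM159, CENPE with -1.06 and 2.36 and CENPF with -1.32 and 1.54 on the log2 scale.

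The NDC80 complex, the rod that grips the microtubule end, is built from NDC80, NUF2, SPC24 and SPC25. NDC80 had 13.3 RPKM with DMSO and 9.21 RPKM with MBZ in MDA-MB-231 cells, and 1.41 and 9.37 RPKM in SUM159 cells. NUF2, its partner at the microtubule end, had 10.8 RPKM with DMSO and 9.33 RPKM with MBZ in MDA-MB-231 cells, and 0.844 and 7.60 RPKM in SUM159 cells. SPC24, at the inner end, had 15.2 RPKM with DMSO and 6.45 RPKM with MBZ in MDA-MB-231 cells, and 3.34 and 8.76 RPKM in SUM159 cells, and SPC25, its partner there, had 10.9 RPKM with DMSO and 5.35 RPKM with MBZ in MDA-MB-231 cells, and 0.924 and 4.98 RPKM in SUM159 cells. All 4 were lowest in SUM159 with DMSO and highest in MDA-MB-231 with DMSO. In MDA-MB-231 cells the inner pair fell, SPC24 at -1.25 (-1.43 to -1.08) and SPC25 at -1.05 (-1.30 to -0.80). With housekeeping scaling SPC24 is -0.71 there, and SPC25, at -0.51, is short of 1.5-fold. NDC80 at -0.54 and NUF2 at -0.23 were short of 1.5-fold and are 0.00 and 0.32 with housekeeping scaling. With total-count scaling NUF2 is 0.04. In SUM159 cells all 4 rose, NUF2 at 3.17 (2.74 to 3.63), NDC80 at 2.73 (2.40 to 3.08), SPC25 at 2.43 (1.85 to 3.06) and SPC24 at 1.39 (1.13 to 1.66). KNL1, the platform for BUB proteins, changed by -1.13 and 2.17, and ZWINT, which binds KNL1, by -0.94 and 1.89.

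The log2 fold changes of 7 spindle assembly factors ran from -1.46 (NUSAP1) to 0.03 (HMMR) in MDA-MB-231 and from 0.07 (CKAP5) to 3.20 (HMMR) in SUM159 cells. TPX2, which activates AURKA on spindle fibres, had 171 RPKM with DMSO and 92.5 RPKM with MBZ in MDA-MB-231 cells, and 15.3 and 64.0 RPKM in SUM159 cells, with changes of -0.91 (-0.95 to -0.86) and 2.06 (1.96 to 2.17). TACC3 and CKAP5 work together on spindle fibres, TACC3 as a linker and CKAP5 as a microtubule polymerase, but their RNAs parted. TACC3 had 36.4 RPKM with DMSO and 19.4 RPKM with MBZ in MDA-MB-231 cells, and 2.23 and 14.6 RPKM in SUM159 cells, and rose by 2.71 (2.54 to 2.88) in SUM159. CKAP5 (ENSG00000175216, chr11:46743048-46846308 of GRCh38) had 49.4 RPKM with DMSO and 25.4 RPKM with MBZ in MDA-MB-231 cells, and 18.9 and 19.9 RPKM in SUM159 cells, a SUM159 change of 0.07 (0.00 to 0.15), or 0.37 with total-count scaling. In MDA-MB-231 cells both fell, TACC3 at -0.93 and CKAP5 at -0.98 on the log2 scale.

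HMMR, a spindle pole protein, was the opposite case. It stood at 1.90 RPKM with DMSO and 1.97 RPKM with MBZ in MDA-MB-231 cells, and 0.952 and 8.74 RPKM in SUM159 cells, based on 174, 147, 62 and 709 counts. The 2 MDA-MB-231 values do not differ beyond counting error with TMM scaling (0.03, -0.30 to 0.35), but the value is 0.57 with housekeeping scaling, outside that interval and short of 1.5-fold, 0.29 with total counts and -0.02 with DESeq2 size factors. The SUM159 rise of 3.20 (2.82 to 3.60) was the second highest value of the 50. Its interval overlaps those of several other genes, among them CDC20, NUF2, CENPA and CDC25C. DLGAP5, a stabiliser of kinetochore fibres, changed by -0.66 and 2.52, and ASPM, which holds spindle poles together, by -1.18 and 2.42. NUSAP1, which bundles microtubules at chromosomes, had 415, 125, 50 and 162 counts and changes of -1.46 (-1.76 to -1.17) and 1.38 (0.91 to 1.87). Its low counts stand beside an overlap of 3133 of 3608 exonic bases with other genes on the same strand in GENCODE, and the effect of this overlap was not tested.

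Cytokinesis was represented by PRC1, ANLN and ECT2. PRC1, the bundler of the central spindle, rests on only 65, 19, 12 and 39 counts. GENCODE places other genes over 3181 of its 5523 exonic bases on the same strand and 1892 on the other, and what this does to its count was not tested. Its changes of -1.50 (-2.32 to -0.75) and 1.38 (0.42 to 2.45) have the widest intervals of the 50 in their lines. ANLN, a scaffold of the contractile ring, had 64.6 RPKM with DMSO and 30.2 RPKM with MBZ in MDA-MB-231 cells, and 4.62 and 14.4 RPKM in SUM159 cells, with changes of -1.11 and 1.64. ECT2, the activator of RhoA at the cell equator, had 27.2 RPKM with DMSO and 26.2 RPKM with MBZ in MDA-MB-231 cells, and 6.49 and 12.4 RPKM in SUM159 cells. Its MDA-MB-231 value was -0.07 (-0.14 to 0.00), or 0.47 with housekeeping and 0.20 with total-count scaling, and its SUM159 value 0.93 (0.79 to 1.07), the smallest rise past 1.5-fold among the 50.

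Chromosome structure covers condensin, TOP2A and MKI67. MKI67 (Ki-67), which coats mitotic chromosomes and marks dividing cells, had 54.5 RPKM with DMSO and 24.4 RPKM with MBZ in MDA-MB-231 cells, and 4.16 and 21.9 RPKM in SUM159 cells, with changes of -1.18 (-1.22 to -1.13) and 2.40 (2.29 to 2.5). TOP2A, which untangles sister DNA, had 84.4 RPKM with DMSO and 42.4 RPKM with MBZ in MDA-MB-231 cells, and 9.65 and 23.4 RPKM in SUM159 cells, with changes of -1.01 (-1.06 to -0.96) and 1.28 (1.17 to 1.38). The ATPase core of condensin, SMC2 with SMC4, came apart in SUM159 cells. SMC4 went from 4.57 to 12.6 RPKM there (1.46, 1.33 to 1.59), whereas SMC2 gave -0.01 (-0.17 to 0.16), a value that is 0.01 with DESeq2 size factors, 0.29 with total counts and 0.04 with housekeeping scaling. In MDA-MB-231 cells SMC4 fell by 0.84 and SMC2 was at -0.39, or 0.15 with housekeeping scaling. The condensin I subunits NCAPG and NCAPH changed by -0.36, or 0.18 with housekeeping scaling, and -1.21 in MDA-MB-231 and by 1.75 and 1.68 in SUM159 cells.

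SMC2, CKAP5, MAD1L1, BUB3 and CDC25B had the SUM159 levels that moved least. Apart from HMMR, they also stood closest to the MDA-MB-231 level with DMSO. MAD1L1 and CDC25B were higher in SUM159 than in MDA-MB-231 cells with DMSO. BUB3, CKAP5 and SMC2 were the next most abundant relative to MDA-MB-231, apart from HMMR. HMMR, at 1.90 and 0.952 RPKM in the 2 controls, shared this small gap yet rose strongly. The gap and the SUM159 change share the SUM159 library with DMSO, which ties them in part in advance. No correlation between them is given, and their relation is no separate result. Across the 50 genes, which are not independent replicates, the log2 fold changes of the 2 lines were nearly unrelated (Pearson r 0.0445, Spearman rho 0.165). Falls of like size in MDA-MB-231 cells could go with rises of different size in SUM159 cells. INCENP and CDC25C, at -1.47 and -1.46 in MDA-MB-231, were at 1.27 and 2.99 in SUM159.

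Related genes outside the 50 give the pattern in other parts of the machinery, and their counts stand beside shares over all genes of 15.8% lower and 18.3% higher in MDA-MB-231 and 21.7% lower and 21.5% higher in SUM159. With housekeeping scaling 3.78% of all genes were lower and 45.8% higher in MDA-MB-231, and with total counts 7.57% and 29.1%, beside 32.8% higher in SUM159. Of 28 other centromere and kinetochore genes, 22 rose in SUM159 cells (median 1.27), led by the CENPA chaperone HJURP at 2.97, with PMF1 lowest at -0.23. In MDA-MB-231 cells 5 of them fell and 1 rose, the falls near the share over all genes, and with housekeeping scaling 0 fell and 6 rose, below the shares over all genes with that scaling. Values ran from CENPM at -1.11 to MIS12 at 0.64, with a median of -0.23 that is 0.32 with housekeeping and 0.04 with total-count scaling. The 20 other mitotic regulators came closest to the 50 by their SUM159 median, with 13 lower in MDA-MB-231 (median -0.70, -0.16 with housekeeping scaling, where 1 fell, and 7 with total counts) and 18 higher in SUM159 (median 1.96). Among these, CEP55, a protein of the final cut between daughter cells, was highest in SUM159 at 2.94, CKS2, a CDK1 subunit, was highest in MDA-MB-231 at 0.15, and WEE1, the kinase that restrains CDK1, was lowest in both lines at -1.18 and -0.43. The 4 other condensin subunits all fell in MDA-MB-231, from NCAPD2 at -1.22 to NCAPD3 at -0.82, but with housekeeping scaling only 1 did. Of the 4, 3 rose in SUM159, with NCAPG2 highest at 2.09 and NCAPH2 lowest at 0.47, short of 1.5-fold.

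In SUM159 cells the medians of APC/C and cohesin genes lay closer to no change than that of the 50. Of 14 APC/C core subunits, the complex that CDC20 and UBE2C serve, 0 fell and 0 rose in MDA-MB-231 (3 rose with housekeeping or with total-count scaling, below the shares over all genes), from ANAPC11 at -0.51 to ANAPC16 at 0.56, with a median of -0.05 that is 0.49 with housekeeping and 0.22 with total-count scaling. In SUM159 cells 2 rose, or 5 with total counts, from ANAPC16 at -0.46 to ANAPC10 at 1.02 (median 0.11, or 0.41 with total counts). Among 12 genes of cohesin, the target of separase, and of its regulators, 2 fell in MDA-MB-231, near the share over all genes. With housekeeping scaling 0 fell and 4 rose, below the shares over all genes with that scaling. In SUM159 1 rose and 1 fell, below the shares over all genes. CDCA5 (sororin), the cohesin protector of G2, was at -0.88 and 2.12, while STAG1 was highest in MDA-MB-231 at 0.43 and STAG2 lowest in SUM159 at -0.65. The list's medians of -0.10 and -0.20 change sign with total counts, to 0.17 and 0.11, and the first is 0.44 with housekeeping scaling.

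**Figure D5:**
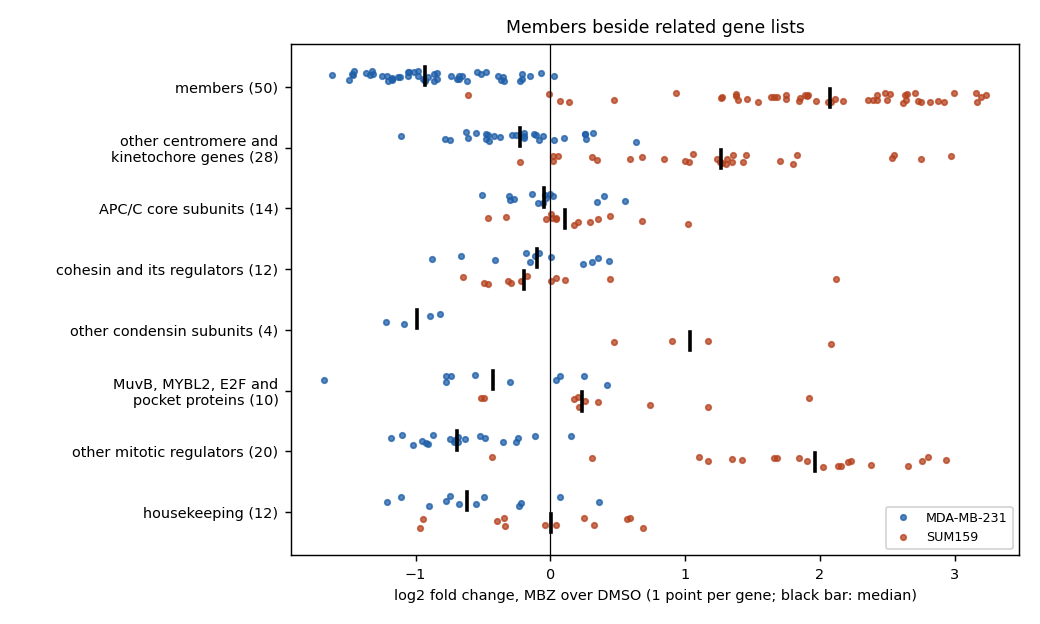
Log2 fold change of MBZ over DMSO, 1 point per gene, for the 50 genes and 7 related lists in MDA-MB-231 (blue) and SUM159 (red) cells, with black bars for medians and gene numbers in brackets. The 50 genes have medians of -0.93 and 2.07, and the APC/C core subunits -0.05 and 0.11; with housekeeping scaling the MDA-MB-231 medians of the APC/C, cohesin, MuvB and other kinetochore lists lie above 0.

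Among 10 regulators of G2 and mitotic genes in the MuvB, E2F and pocket protein families, MYBL2, the activating partner of MuvB, moved like the 50, at -1.68 (-1.78 to -1.57) and 1.92 (1.77 to 2.07), on levels of 56.4 RPKM with DMSO and 17.8 RPKM with MBZ in MDA-MB-231 cells, and 9.55 and 36.2 RPKM in SUM159 cells. FOXM1, given above among the 50, moved the same way in each line. The list as a whole had 4 genes lower in MDA-MB-231, or 1 with housekeeping or with total-count scaling, and 3 higher in SUM159, near the share over all genes. With housekeeping scaling 3 were higher in MDA-MB-231, and with total counts 1. Of the list, LIN54 was highest in MDA-MB-231 at 0.42 and RBL2 was lowest in SUM159 at -0.52. Its medians were -0.43, or 0.11 with housekeeping scaling, and 0.23, or 0.54 with total counts. Of the 10 genes, 2, MYBL2 among them, fell in MDA-MB-231 and rose in SUM159, beside 3.12% of all genes.

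A change alike in both lines was looked for with edgeR's quasi-likelihood test over all 4 libraries, with cell line in the model. None of the 50 genes was called at an adjusted p under 0.05, where 0.00621% of 16100 genes tested were called, and 0 had an unadjusted p under 0.05. DESeq2's Wald test called 0 as well, with 1 gene at an unadjusted p under 0.05. The lowest adjusted p was 0.706, for CDC25B, the gene that was lower in both lines, with a shared log2 fold change of -0.70 (SE 0.32). The lowest adjusted p under the other fits ranged from 0.0714 to 1.000, the former in edgeR's fit without a filter, where 16 of the 50 had an unadjusted p under 0.05. The test takes its error from how the lines differ in response, and changes in opposite directions are not what it looks for.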

How the data were processed

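RNA of 4 cultures, 1 per group, was sequenced. The authors mapped reads with STAR 2.5 to GRCh38 and counted them with HTSeq 0.6.1 in union mode, which leaves out reads that overlap more than 1 gene (versions from the submitters' processing notes). They deposited whole-number read counts per gene without normalization. The annotation release and the strand setting are not given in the sources used here, so the effect of overlapping genes on the counts was not worked out. GENCODE release 44 on GRCh38 gave symbols for 58207 of 58735 rows, positions and exon lengths. Of the 50 genes, 15 overlap exons of an antisense gene, 5 of a gene on the same strand, and 13 have a pseudogene of their name.

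Fold changes are differences of log2 CPM (edgeR 4.0.16 in R 4.3.3, TMM over the 2 libraries of a line, prior count 0.125). RPKM used the union of exons and TMM over 4 libraries. Clopper-Pearson intervals at 95% cover counting error only, since PCR copies of a molecule are counted as separate reads, and a count of 0 allows up to 3 counts. Levels were compared between lines where the 4 libraries averaged at least 10 counts, with 0.5 CPM added in counts at 2-fold; captions count plain RPKM. The shared test was edgeR's quasi-likelihood test (line and treatment, filterByExpr, TMM, Benjamini-Hochberg). DESeq2 1.42.0, other scalings, filters and thresholds were alternatives. The functions were tested on simulated counts. Python 3.11.15, pandas 2.3.3 and scipy 1.17.1 made the tables.

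The 50 genes and all lists were chosen with earlier results of these data known. Any of the 50 may be named; from each other list the genes named are those with the highest and lowest log2 fold change in each line where the line's libraries averaged at least 10 counts. The 5 promoters printed and the pairs of related genes were chosen after values were seen.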

Additional observations from a re-analysis of the deposited data

Results flagged for a closer look

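For 35 of the 50 genes MBZ went with a fall in MDA-MB-231 cells and a rise in SUM159 cells, each at least 1.5-fold. Their counting intervals lay on opposite sides of no change. Over all genes compared in both lines, 3.12% did both. With housekeeping scaling 16 of the 35 remain, beside 0.837% of all genes, and at 2-fold 21, beside 0.83%. The difference between the lines was not tested for any of the 35, since each condition has 1 library. The values below are the SUM159 log2 fold change minus that of MDA-MB-231.

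Among genes of mitotic entry the difference was 3.37 for CCNA2, 3.50 for CCNB1, 2.96 for CCNB2, 3.05 for CDK1, 4.46 for CDC25C and 3.01 for FOXM1. For the mitotic kinases it was 4.26 for PLK1 and 3.18 for AURKB. In the spindle checkpoint it came to 3.33 for BUB1, 3.17 for BUB1B and 3.18 for TTK. Genes of anaphase control differed by 3.37 for UBE2C, 2.82 for PTTG1 and 3.99 for ESPL1. For the chromosomal passengers and SGO2 it was 3.83 for BIRC5, 2.74 for INCENP, 3.73 for CDCA8 and 2.98 for SGO2. At the centromere and kinetochore it reached 3.42 for CENPE, 2.86 for CENPF, 2.64 for SPC24, 3.48 for SPC25, 3.30 for KNL1 and 2.83 for ZWINT. Spindle assembly factors differed by 2.97 for TPX2, 3.64 for TACC3, 3.18 for DLGAP5, 2.84 for NUSAP1 and 3.60 for ASPM. For cytokinesis it was 2.87 for PRC1 and 2.75 for ANLN. Genes of chromosome structure differed by 2.90 for NCAPH, 2.30 for SMC4, 2.29 for TOP2A and 3.57 for MKI67.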

How the results depend on the processing

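Scaling to housekeeping genes left 16 of 50 genes lower in MDA-MB-231, where 37 were, and 16 lower there and higher in SUM159, where 35 were, and moved the MDA-MB-231 median to -0.39. A fold change of at least 2 gave 21 lower in MDA-MB-231 and 21 lower there and higher in SUM159. Total-count scaling gave medians of -0.66 in MDA-MB-231 and 2.37 in SUM159. Without the 18 genes whose exons overlap another gene, an alternative chosen after seeing the data, 28 of 32 genes were higher in SUM159, where 45 of 50 were; fewer genes were counted. The other alternatives (DESeq2 size factors, TMM over 4 libraries, a prior count of 2, no filter on counts, a filter at a mean of 100 counts) kept these counts within 1.5 times, and the medians within the typical counting interval. A counting interval on 1 side of no change, run for the counts only, and leaving out genes with a pseudogene of their name, run for the medians only, did the same. Each other scaling moves all genes of a line nearly alike, by a median of at most 0.54 on the log2 scale. A 1.5-fold change is 0.585 on that scale, so genes past it could not change sign with scaling. With a prior count of 2, none of the 50 changed sign.

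Over all genes in MDA-MB-231, 2765 were higher and 2386 lower, against 4408 and 1146 with total counts and 6942 and 572 with housekeeping scaling. In SUM159, 3376 and 3403 became 5135 and 2004 with total counts. The shared test called 0 of the 50 in all 5 fits, while over all genes it called 1, 1 with RLE, 298 without the filter, 0 without cell line and 98 with DESeq2, which gave no adjusted p for 2810 genes. No pairing beyond cell line was possible, because each group has replicate number 1 only. The shared test already pairs libraries by cell line, which is in its model. Leaving out a library leaves no comparison in its line.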

Other observations

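Ratios of 2 RNAs within a library do not depend on how libraries are scaled. For 10 pairs of related genes among the 50, chosen after their values were seen, the change of the ratio with MBZ was computed in each line. AURKA over AURKB, per length, went from 1.68 with DMSO to 3.31 with MBZ in MDA-MB-231, and the SUM159 values were 1.63 and 3.17. These are log2 changes of 0.98 (95% counting interval 0.85 to 1.10) and 0.96 (0.61 to 1.30). The ratio of the Aurora kinase RNAs thus moved the same way in both lines, each with 1 library per treatment. CCNB1 over CCNB2 rose in both lines too, by 0.44 (0.33 to 0.54) in MDA-MB-231 and 0.97 (0.77 to 1.17) in SUM159 cells.

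Other pairs went apart. CDC25C over CDC25B changed by -0.60 (-0.86 to -0.35) in MDA-MB-231 and 3.61 (3.0 to 4.28) in SUM159 cells. SMC2 over SMC4 changed by 0.45 (0.32 to 0.58) and -1.47 (-1.68 to -1.26). In the other 6 pairs at least 1 line's interval held 0. Of these, MAD2L1 over MAD1L1 changed by 1.77 (1.54 to 2.0) in SUM159 and 0.06 (-0.09 to 0.20) in MDA-MB-231 cells. NCAPG over NCAPH changed by 0.85 (0.69 to 1.01) in MDA-MB-231 and 0.06 (-0.30 to 0.43) in SUM159 cells. BUB1 over BUB1B stayed within counting error in both lines, at -0.02 and 0.15.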
